A study of Mus musculus with 6 samples.

Results

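The mitochondrial ribosomal protein genes are the nuclear genes named Mrpl (large subunit) or Mrps (small subunit) followed by a number. They were chosen by symbol, as all protein-coding mouse genes with such a name, with 6 pseudogenes left out. That gave 78 genes, 49 named Mrpl and 29 named Mrps, of 36528 gene identifiers in the deposited files, and all 78 had enough reads to be tested. Polyadenylated RNA was sequenced from bulge stem cells of the hair follicle, sorted from mouse skin by 2 surface proteins, CD49f (an integrin) and CD34, and by the absence of GFP. All mice carried Lgr5-DTReGFP, which places the diphtheria toxin receptor and eGFP at the Lgr5 locus, so that diphtheria toxin (DT) kills cells in which Lgr5 is active. One group received saline and the other DT, with 3 libraries each. DT was not tried in mice that lack the receptor. The labels give neither the age, sex and strain of the mice nor the dose of DT, the time to collection, or whether each library is a different mouse. The p-values therefore rest on the spread among libraries, which may be technical.

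Mitochondria keep their own ribosome, which translates the few membrane proteins encoded by mitochondrial DNA, all of them parts of the respiratory chain or the ATP synthase. Its RNA comes from mitochondrial DNA, but every one of its proteins is encoded in the nucleus, translated in the cytosol and imported. Some of these proteins descend from bacterial ribosomal proteins, and others are found only in mitochondria and surround the shortened ribosomal RNA. Bulge stem cells are largely quiescent between hair cycles and are known to rely on glycolysis.

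Libraries held 15300755 to 25558859 reads in genes, DT library 2 the fewest. The sort markers Cd34 and Itga6 and the bulge keratin Krt15 were present in all 6 libraries (Cd34 at 1883 to 3088 CPM, reads scaled to library size). Of 10 bulge markers Krt14 rose and Lhx2, Sox9 and Nfatc1 fell. Summed levels of markers of other cells were lower in DT for 5 melanocyte genes (13.5 to 27.5 CPM with saline, 7.92 to 10.3 in DT), for 5 immune genes (142 to 200 and 94.4 to 115) and for 6 fibroblast genes (23.5 to 41.3 and 9.47 to 16.9), of which Lum was at 0. Of these, Dct, Tyrp1, Cd3e, Cd74 and Col1a2 fell. Most of the immune sum was Cd74 (means of 152 CPM with saline and 98.0 in DT), and most of the fibroblast sum was Col1a2 (28.8 and 12.3). Pmel, Ptprc, Cd207 and Col1a1 were not called, and the others had too few reads to be tested. Of these, Mlana and Pdgfra, under 1 CPM, were not lower on average in DT. Summed levels of 3 endothelial genes overlapped (2.27 to 12.6 and 6.56 to 8.59). The sum of 4 muscle markers went from 0.601 to 1.86 CPM with saline to 23.4 to 102 in DT, almost all of it Acta2, while Myh11, Des and Acta1 stayed under 1 CPM. The part of these cells in the results below was not tested. In bulk RNA, a change in the number of cells of a type and a change in RNA per cell cannot be told apart.

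Of the 78 mitochondrial ribosomal protein genes, 38 rose in DT and 0 fell (48.7% rose, against 17.2% of all 15132 genes tested that rose and 11.9% that fell; edgeR quasi-likelihood test, Benjamini-Hochberg adjusted p under 0.05). No member passed a downward test at an unadjusted p under 0.05 either (0 of 78), and DESeq2 and limma-voom also called 0 falls, with 38 and 37 rises. The rises were small. The median log2 fold change of the 78 genes was 0.43, or 1.35-fold, with quartiles of 0.26 and 0.63, where all genes tested had a median of -0.01. Only 3 of the 78 members passed with a rise of more than 2-fold, a smaller share than the 1326 of all 15132 genes tested. A rise of more than 1.5-fold was called for 22 members. The fold change was above 0 for 75 of the 78 genes, against 49.4% of all genes tested.

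**Figure D1:**
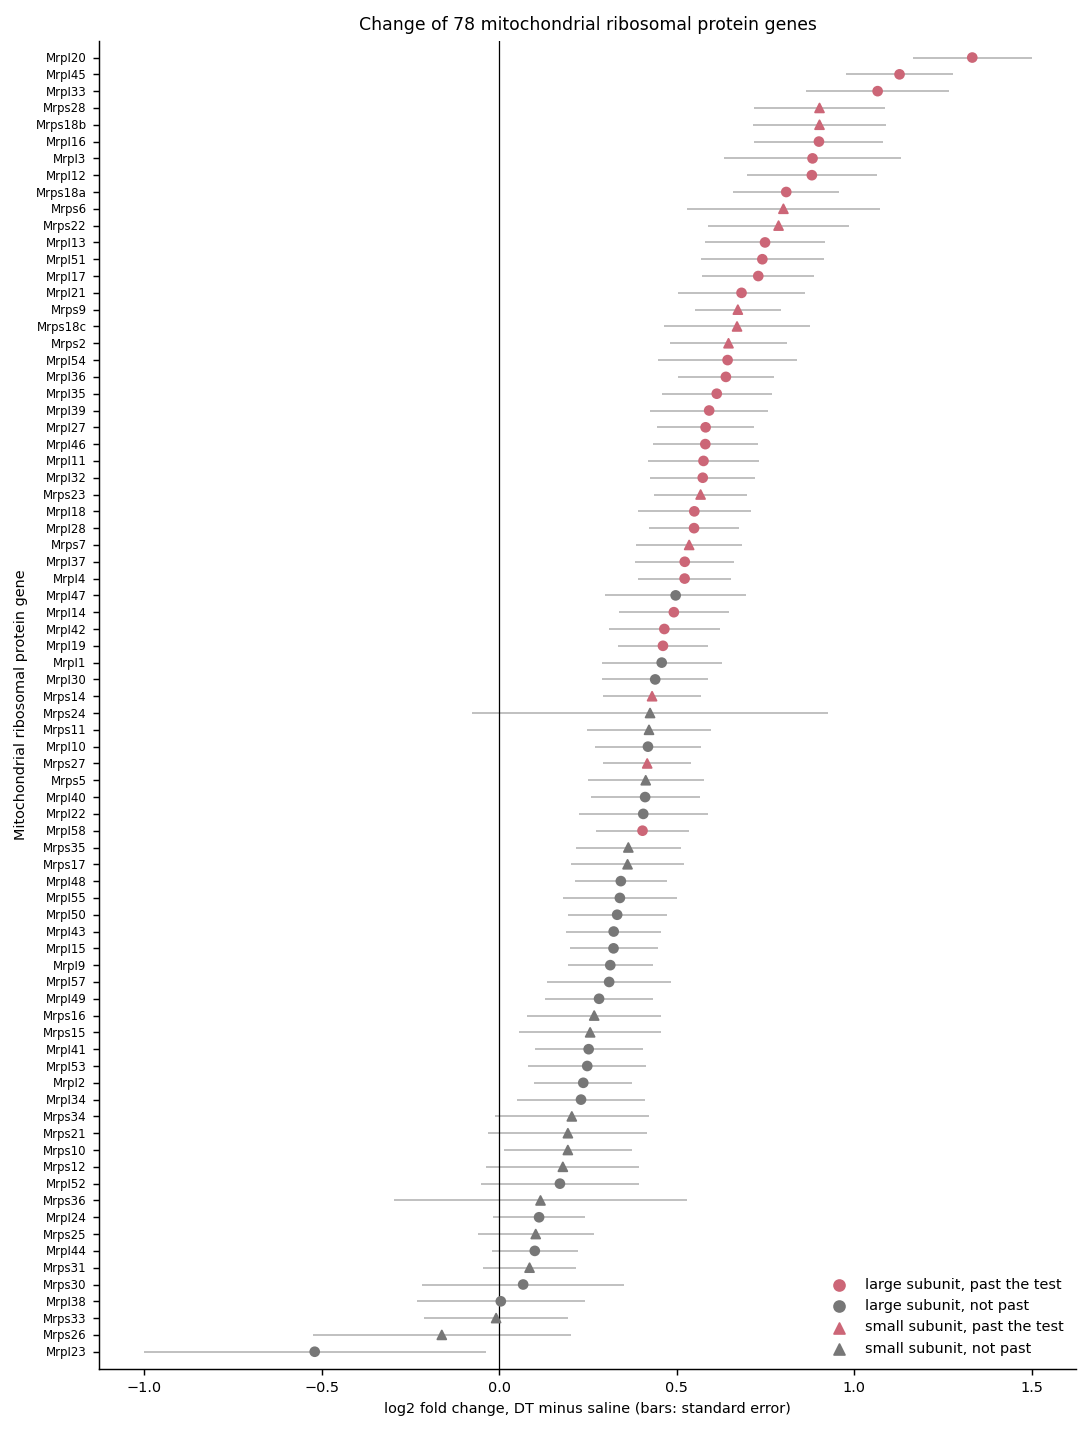
Log2 fold change (DT minus saline, x axis) of each of the 78 genes (y axis), with bars of 1 standard error. Circles are proteins of the large subunit, triangles those of the small subunit, and red symbols passed the test. Mrpl20 stands highest at 1.33, and Mrpl23, Mrps26 and Mrps33 are the 3 genes below 0.

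All 3 DT libraries lay above all 3 saline libraries for 54 of the 78 genes, where 25.4% of all genes tested did so, and for 0 genes did all DT libraries lie below, where 20.5% did. The summed level of the 78 genes was 3688, 3512 and 3413 CPM with saline libraries 1 to 3 and 4537, 5461 and 4890 CPM with DT libraries 1 to 3. The DT libraries were thus all higher, and the groups did not overlap. The median gene stood 0.35, 0.53 and 0.44 above its saline mean on the log2 scale in DT libraries 1 to 3. DT library 2 had the highest DT value for 55 genes and DT library 1 the lowest for 47. DT library 2 was also the library with the fewest reads. Without it 12 members rose (background 10.4% of genes), and without DT library 3 there were 13 (background 10%). Without saline library 2 the count was 20 (background 11.7%), without saline library 3 it was 23 (14.2%), without saline library 1 it was 30 (15.1%) and without DT library 1 it was 41 (17.9%). The median log2 fold change was 0.37 to 0.48 over these sets of 5 libraries. The submitters' sample identifiers fall into 2 number series, and within the larger, with 2 libraries per group, 3 members rose (background 7.22%) at a median of 0.43.

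**Figure D2:**
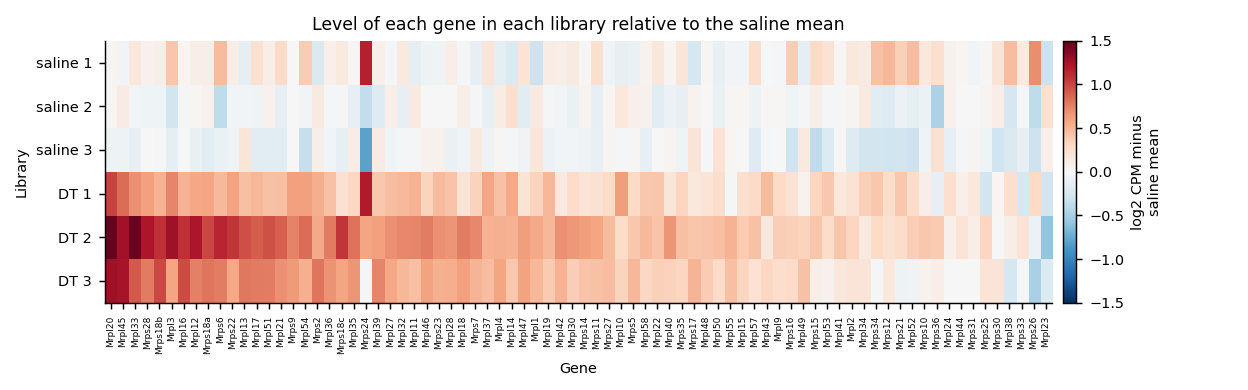
Level of each gene (x axis) in each library (y axis) as log2 CPM minus the mean of the 3 saline libraries, red for higher and blue for lower. Most of the 78 genes are red in all 3 DT libraries, most deeply in DT library 2, and Mrps24 is red in saline library 1 as well as in DT library 1.

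The members were short genes, with a median transcript length of 848 bases in GENCODE M21 against 1408 for all genes tested. Over all genes tested, longer transcripts had somewhat lower fold changes (Spearman's rho across 13821 genes -0.14). Within the 78 members rho was 0.00, where genes share the same libraries and are not replicates. After trends of each library's levels with length and with GC were taken out within the fit, 22 members rose and 0 fell (background 15.9%), and the median fell to 0.26. Length in this correction was the one implied by the deposited counts and length-scaled values, not the GENCODE length. Of these 22, 21 were among the 38. Scaling by library size alone gave 25 rises (background 13.9%) and a median of 0.33, while the median of all genes moved to -0.11.

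Promoter windows of 4 members are shown first for their place in the results. Mrpl20 and Mrpl45 had the greatest rises, Mrps18a combines 2 of the motifs searched, and Mrpl12 belongs to the factor-binding stalk. Each window runs 5′ to 3′ on the strand of the gene, from 250 bases before to 50 after a RefSeq start in GRCm38.p6. For Mrpl45 that start lies inside the annotated gene. Capitals mark matches on either strand to motifs of factors known for nuclear genes of mitochondria: GCGCANGCG for nuclear respiratory factor 1 (encoded by Nrf1), CCGGAAG for ETS factors such as GABP, AANATGGCG for YY1, and CACGTG, the E-box read by Myc and other factors.

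Mrpl20, chr4:155802628-155802927, plus strand, 1 E-box: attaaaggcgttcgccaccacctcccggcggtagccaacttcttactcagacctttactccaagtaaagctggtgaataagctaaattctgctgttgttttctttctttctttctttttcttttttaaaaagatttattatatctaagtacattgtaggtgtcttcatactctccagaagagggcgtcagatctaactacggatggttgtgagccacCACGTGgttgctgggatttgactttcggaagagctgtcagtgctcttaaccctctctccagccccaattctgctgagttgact

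Mrpl45, chr11:97315466-97315765, plus strand, 3 matches to the NRF1 motif: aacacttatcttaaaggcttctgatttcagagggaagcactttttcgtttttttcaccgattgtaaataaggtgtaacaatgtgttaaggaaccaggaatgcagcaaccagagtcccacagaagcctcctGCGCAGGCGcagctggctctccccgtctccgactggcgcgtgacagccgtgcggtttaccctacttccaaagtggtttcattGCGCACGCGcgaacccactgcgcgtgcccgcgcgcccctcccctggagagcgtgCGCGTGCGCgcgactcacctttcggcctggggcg

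Mrps18a, chr17:46110754-46111053, plus strand, 1 ETS and 1 YY1 match: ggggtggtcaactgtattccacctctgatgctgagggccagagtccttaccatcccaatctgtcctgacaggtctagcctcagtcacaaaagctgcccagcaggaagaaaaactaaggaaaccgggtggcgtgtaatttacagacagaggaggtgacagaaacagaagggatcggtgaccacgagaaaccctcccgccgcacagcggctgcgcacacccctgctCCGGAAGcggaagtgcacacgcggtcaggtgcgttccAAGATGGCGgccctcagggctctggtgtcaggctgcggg

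Mrpl12, chr11:120484387-120484686, plus strand, 1 match to the NRF1 motif: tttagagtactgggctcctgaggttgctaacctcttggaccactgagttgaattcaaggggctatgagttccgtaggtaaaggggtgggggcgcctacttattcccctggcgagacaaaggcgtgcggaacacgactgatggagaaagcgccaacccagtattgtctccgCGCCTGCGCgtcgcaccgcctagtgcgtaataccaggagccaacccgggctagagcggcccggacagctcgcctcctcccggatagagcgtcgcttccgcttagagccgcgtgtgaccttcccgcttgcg

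RefSeq windows were found for 69 of the 78 genes. The ETS motif was in the windows of 26 of these 69 (37.7%), against 19.6% of 10371 protein-coding genes tested and 8.86% of all 32851 windows. The YY1 motif was in 11 (15.9%, against 5.74% and 2.38%), and the NRF1 motif in 16 (23.2%, against 14.8% and 6.25%). The E-box was in 5 (7.25%, against 11.6% and 7.15%). Among the 33 members that rose, 14 had the ETS, 8 the YY1, 8 the NRF1 and 4 the E-box motif, and among the 36 that did not pass the counts were 12, 3, 8 and 1. The difference between these groups was not tested. The GC box GGGCGG was in 34 members (49.3%, against 67.9% of coding genes tested), and TATAAA in 5 (7.25%, against 8.92%). Windows of members held a median of 21 CpG dinucleotides, against 20 for coding genes tested. A match gives only the letters in the window.

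Many members start back to back with another gene. In GENCODE M21, 18 of the 78 (23.1%) had a protein-coding gene on the other strand that starts upstream within 1000 bases and points away, against 6.78% of all 21951 protein-coding genes. Those 21951 include genes with too few reads to be tested here, while all 78 members were tested. The share among genes tested was not computed. Of these 18 members 7 rose. Of the 18 partners 7 rose and 0 fell, with a median log2 fold change of 0.36. Among all genes tested, 17.2% rose and 11.9% fell, with a median of -0.01. Mrps18b rose by 0.90 and its partner Ppp1r10, which starts 45 bases away and encodes a regulator of a protein phosphatase, by 0.78. Mrpl51 rose by 0.74 and its partner Ncapd2, a condensin subunit 100 bases away, by 1.94. Mrpl57 had a log2 fold change of 0.31 (adjusted p = 0.208), while Ska3, a gene of the kinetochore 49 bases away, rose by 3.52. These pairs were chosen after their values were seen.

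The large subunit forms the peptide bond and holds the tunnel through which the new chain leaves. With Mrps18a and Mrps30, which sit in the large subunit despite their names, it had 51 members. Of these 27 rose (52.9%, against 17.2% of all genes tested), with a median log2 fold change of 0.47. After the length and GC correction 17 of the 51 rose, against 15.9% of all genes, and the median was 0.31. Mrpl20 (Entrez 66448, chromosome 4 from 155802878 to 155808831 in GRCm38), whose bacterial counterpart binds ribosomal RNA early in assembly, was at 45.6, 45.8 and 42.0 CPM with saline and at 90.2, 138 and 108 CPM with DT. The groups were far apart, and DT library 2 was the highest. It rose 2.52-fold (log2 1.33, SE 0.17, adjusted p = 0.000515).

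Mrpl45 (Entrez 67036, chromosome 11 from 97314923 to 97329920), which lies at the tunnel exit and attaches the ribosome to the inner membrane, was at 47.7, 53.7 and 46.5 CPM with saline and 88.6, 118 and 116 CPM with DT. It rose by 1.13 (SE 0.15, adjusted p = 0.000758). Mrpl33 (Entrez 66845, chromosome 5 from 31613951 to 31622644), a small protein with a bacterial counterpart, was at 60.6, 52.3 and 49.3 CPM with saline and 86.9, 151 and 102 CPM with DT. It rose by 1.07 (SE 0.20, adjusted p = 0.00415), or by 0.78 without DT library 2. Mrpl16 (Entrez 94063, chromosome 19 from 11770415 to 11774956), whose bacterial counterpart lies near the transfer RNA sites, was at 22.6, 21.7 and 22.0 CPM with saline and 31.9, 47.8 and 44.0 CPM with DT. It rose by 0.90 (SE 0.18, adjusted p = 0.00559). In each of these 4 genes the saline libraries lay close together and the DT libraries were spread more widely.

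Mrpl36 (Entrez 94066), one of the smallest proteins of the ribosome, rose from 72.3 ± 3.17 to 113 ± 13.5 CPM (SD, n = 3; log2 0.64, adjusted p = 0.00703). Mrpl28 rose from 111 ± 7.67 to 163 ± 13.2 CPM (log2 0.55, adjusted p = 0.0104), a call lost without DT library 2 or 3 (adjusted p up to 0.0576). Mrpl42 rose from 78.6 ± 4.26 to 108 ± 20.4 CPM (log2 0.47, adjusted p = 0.049) and passed in 1 of the 6 sets of 5 libraries. After the length and GC correction its log2 fold change was 0.082 (adjusted p = 0.644), and with library size only it was 0.37 (adjusted p = 0.118). Mrpl58, a peptidyl-tRNA hydrolase that frees stalled ribosomes and is also built into the large subunit, rose from 56.4 ± 3.94 to 74.6 ± 4.55 CPM (log2 0.40, adjusted p = 0.0424). Its call was lost whichever library was left out, and its log2 fold change was 0.18 after the length and GC correction (adjusted p = 0.293). Mrpl3, the counterpart of bacterial L3 near the peptidyl transferase centre, is named after its values were seen. It was at 20.5, 12.5 and 13.8 CPM with saline and 25.7, 37.5 and 23.3 CPM with DT (log2 0.88, adjusted p = 0.0246), with the groups apart and DT library 2 the highest, and passed in 3 of the 6 sets but not after the length and GC correction (adjusted p = 0.073).

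**Figure D3:**
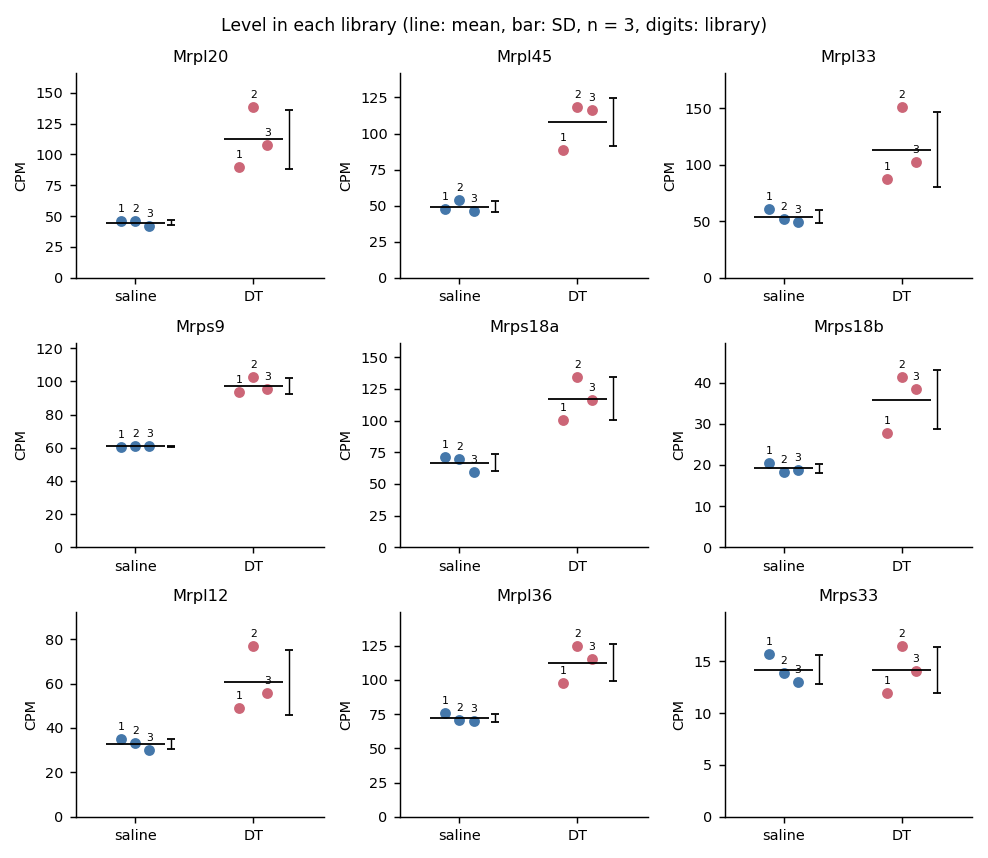
CPM (y axis, from 0) of 9 genes in each saline (blue) and DT (red) library, with the mean as a line and the SD as a bar to its right, n = 3. In 8 of the genes every DT library lies above every saline library, and in Mrps33 the groups overlap.

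By site in the large subunit, the stalk that recruits translation factors had 5 members. Of these Mrpl12, Mrpl54 and Mrpl11 rose (60%, against 17.2% of all genes tested, median log2 fold change 0.58). Mrpl12 (Entrez 56282, chromosome 11 from 120484637 to 120488754), the counterpart of bacterial L7/L12 and also reported to bind the mitochondrial RNA polymerase, was at 34.8, 33.4 and 30.2 CPM with saline and 49.0, 76.7 and 55.6 CPM with DT (log2 0.88, SE 0.18, adjusted p = 0.0066). Mrpl54 rose by 0.64 (adjusted p = 0.0327) and Mrpl11 by 0.58 (adjusted p = 0.0213), and Mrpl54 did not pass with library size only (adjusted p = 0.0685). Mrpl10, the stalk base, had 0.42 (adjusted p = 0.0579) and Mrpl53 0.25 (adjusted p = 0.292).

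Of 6 members around the exit tunnel, Mrpl45 and Mrpl39 rose (33.3%, against 17.2% of all genes tested, median 0.26). Mrpl39 passed in 3 of the 6 sets of 5 libraries. After the length and GC correction Mrpl39 did not pass (adjusted p = 0.0668) and the median was 0.0016. Mrpl44, a tunnel-exit protein with a fold like that of ribonuclease III, was at 107, 104 and 103 CPM with saline and 110, 121 and 105 CPM with DT. The groups overlapped and its log2 fold change was 0.10 (SE 0.12, adjusted p = 0.564). Mrpl23 was the lowest of the 78 genes, at 0.759 RPKM (reads scaled by library and by transcript length) over the 6 libraries, with 11 to 37 reads per library. Its log2 fold change was -0.52 (SE 0.48, adjusted p = 0.446). The annotation has a pseudogene of Mrpl23, and reads that fit both would not have been counted. The part of this in its low count was not tested. Of 5 members of the central protuberance, a ridge of the large subunit facing the small one, Mrpl46 and Mrpl18 rose (40%, median 0.41). Mrpl46 passed in 3 and Mrpl18 in 1 of the 6 sets of 5 libraries. After the length and GC correction 0 of the 5 rose (adjusted p = 0.106 for Mrpl46 and 0.089 for Mrpl18) and the median was 0.13. Of all genes tested 17.2% rose, and 15.9% with that correction. Mrpl38, of the same ridge, was at 23.1 ± 7.04 CPM with saline and 23.2 ± 4.12 CPM with DT.

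The small subunit binds messenger RNA and decodes it. Of its 27 members 11 rose (40.7%, against 17.2% of all genes tested), with a median of 0.41. After the length and GC correction 5 of the 27 rose, near the 15.9% of all genes, and the median was 0.21. All DT libraries lay above all saline libraries for 13 of the 27, against 41 of the 51 of the large subunit and 25.4% of all genes tested. The difference between subunits was not tested. Mrps9 (Entrez 69527, chromosome 1 from 42851233 to 42905683), whose bacterial counterpart reaches the peptidyl tRNA site, was at 60.5, 61.1 and 61.3 CPM with saline and 93.5, 103 and 95.3 CPM with DT. Both groups were tight and far apart, and it rose 1.59-fold (log2 0.67, SE 0.12, adjusted p = 0.00333). Mrps28 (Entrez 66230, chromosome 3 from 8802146 to 8923857) was at 24.2, 22.0 and 23.0 CPM with saline and 35.5, 54.1 and 39.8 CPM with DT (log2 0.90, SE 0.19, adjusted p = 0.00619).

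Mammals have 3 mitochondrial proteins related to bacterial S18, and all 3 genes rose, Mrps18c with the least certain call. Mrps18a (Entrez 68565, chromosome 17 from 46111004 to 46128908), the copy in the large subunit, was at 71.5, 69.6 and 59.6 CPM with saline and 101, 135 and 117 CPM with DT (log2 0.81, SE 0.15, adjusted p = 0.00375). Mrps18b (Entrez 66973, chromosome 17 from 35910380 to 35916440) was at 20.4, 18.2 and 18.9 CPM with saline and 27.8, 41.4 and 38.4 CPM with DT (log2 0.90, SE 0.19, adjusted p = 0.00636). Mrps18c (Entrez 68735, chromosome 5 from 100798759 to 100804467) was at 46.3, 41.3 and 38.6 CPM with saline and 49.0, 88.8 and 63.2 CPM with DT (log2 0.67, SE 0.21, adjusted p = 0.0354). The DT libraries of Mrps18c were the most spread of the 3, and its call was lost in 5 of the 6 sets of 5 libraries. Mrps18c was also at 0.27 after the length and GC correction (adjusted p = 0.201), and did not pass with library size only (adjusted p = 0.0685) or with limma on RPKM (adjusted p = 0.057). Per length the copies differed in level: the mean over the 6 libraries was 100.4 RPKM for Mrps18a, 102 for Mrps18c and 24.2 for Mrps18b.

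The other small subunit genes that rose were Mrps6, Mrps22, Mrps2, Mrps23, Mrps7, Mrps14 and Mrps27, from 0.42 for Mrps27, a mitochondrial protein with pentatricopeptide repeats, to 0.80 for Mrps6, the counterpart of bacterial S6. Mrps6 was at 14.8, 8 and 9.81 CPM with saline and 14.9, 23.8 and 18.3 CPM with DT (adjusted p = 0.0495), with saline library 1 and DT library 1 nearly level, and passed in 2 of the 6 sets of 5 libraries. Mrps22, found only in mitochondria, was at 14.1, 12.9 and 12.8 CPM with saline and 20.3, 28.4 and 20.0 CPM with DT (adjusted p = 0.0152) and passed in 4. After the length and GC correction neither Mrps6 (adjusted p = 0.123) nor Mrps22 (adjusted p = 0.0796) passed, nor did Mrps7, Mrps14 and Mrps27. These genes were chosen after their values were seen.

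The remaining small subunit genes did not pass. Mrps12, at the decoding centre, was at 45.0, 27.8 and 25.7 CPM with saline and 38.6, 37.3 and 35.6 CPM with DT, so saline library 1 lay above all DT libraries (adjusted p = 0.563). Mrps33 was at 14.2 ± 1.39 CPM with saline and 14.2 ± 2.25 CPM with DT (log2 -0.01, SE 0.20). Mrps26 was at 11, 4.95 and 5.21 CPM with saline and 8.21, 6.18 and 4.59 CPM with DT, and its direction turned without saline library 1 (log2 0.29 in place of -0.16). Mrps24, chosen after its values were seen, was at 19.2, 6.34 and 4.56 CPM with saline and 19.6, 12.8 and 8.18 CPM with DT. Without saline library 1 its log2 fold change was 1.28 in place of 0.42.

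Among the lowest members, Mrps36 is now known as a subunit of the 2-oxoglutarate dehydrogenase complex. It was at 2.75 RPKM over the 6 libraries and gave 0.12 on the log2 scale (SE 0.41, adjusted p = 0.852). It has 3 annotated pseudogenes, whose part in its low level was not tested. Mrps30, a mitochondria-specific protein of the large subunit, was at 2.59 RPKM, with 4.28 ± 0.835 CPM with saline and 4.48 ± 0.371 CPM with DT. At the other end, Mrpl33 was the highest per length at 169 RPKM, followed by Mrpl28 at 121 and Mrpl42 at 120. The median member stood at 34.8 RPKM. Across the 78 genes the level per length and the log2 fold change had a Spearman's rho of 0.22, close to the 0.19 across all genes tested, and both come from the same libraries.

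Of the 48 members with a bacterial counterpart 27 rose (56.25%, median 0.51). Of the 30 found only in mitochondria or without a clear counterpart 11 rose (36.7%, median 0.33), where 17.2% of all genes tested did. After the length and GC correction 18 of the 48 and 4 of the 30 rose, with medians of 0.37 and 0.16. Of all genes 15.9% rose with that correction, and the 4 of 30 were near that share. The difference between the 48 and the 30 was not tested. All DT libraries lay above all saline libraries for 37 of the 48 and 17 of the 30, against 25.4% of all genes tested.

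The proteins of the mitochondrial ribosome with other names were Dap3, Aurkaip1, Chchd1, Ptcd3 and Gadd45gip1. Of these 5 genes 1 rose (20%, near the 17.2% of all genes tested). That gene, Chchd1, went from 44.2 ± 5.70 to 65.6 ± 16.7 CPM (log2 0.57, adjusted p = 0.0492). It passed in 2 of the 6 sets of 5 libraries but not after the length and GC correction (adjusted p = 0.228). Ptcd3 had 0.46 (adjusted p = 0.076), Aurkaip1 0.31 (adjusted p = 0.11), Gadd45gip1 0.20 (adjusted p = 0.513) and Dap3, a GTP-binding protein of the small subunit, 0.10 (adjusted p = 0.613). Of 27 assembly factors, 4 rose (14.8%) and 1 fell (3.7%), with a median of 0.11. These shares are below the 17.2% and 11.9% of all genes tested. Fastkd2, an RNA-binding protein needed for assembly of the large subunit, rose by 0.96 (adjusted p = 0.00551), the ribosomal RNA methyltransferase Mrm3 by 0.85 (adjusted p = 0.00591) and Mterf3 by 0.53 (adjusted p = 0.0403). Ngrn fell (-0.64, adjusted p = 0.0422). Fastkd2 and Mrm3 passed whichever library was left out, and Mterf3 and Ngrn in 1 of the 6 sets. Mterf3 did not pass after the length and GC correction (adjusted p = 0.175).

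Of 13 mitochondrial translation factors 2 rose (15.4%) and 1 fell (7.69%), near the 17.2% and 11.9% of all genes tested (median -0.05): Tsfm, an elongation factor, by 0.67 (adjusted p = 0.0106), Gfm1, the translocase, by 0.61 (adjusted p = 0.026), and the GTPase Guf1 with -0.92 (adjusted p = 0.0162). Tsfm and Guf1 passed in 4 of the 6 sets of 5 libraries and Gfm1 in 2. Gfm1 did not pass after the length and GC correction (adjusted p = 0.0952). Of 20 genes for charging mitochondrial tRNA, Sars2 (0.63, adjusted p = 0.0382) and Qrsl1 (0.87, adjusted p = 0.0383) rose and 0 fell (median -0.05). That is 10% rising, below the 17.2% of all genes tested, with 0 falls also at an unadjusted p under 0.05. Each of the pair passed in 1 of the 6 sets, and Qrsl1 did not pass after the length and GC correction (adjusted p = 0.0704). Of 18 genes of mitochondrial transcription and RNA 5 rose (27.8%, against 17.2% of all genes tested) and 0 fell (median 0.23), with 1 fall at an unadjusted p under 0.05. After the length and GC correction 2 of 17 rose, below the 15.9% of all genes, with a median of 0.096. Among the 5 were the RNA helicase Supv3l1 (0.95, adjusted p = 0.00496), Slirp (0.84, adjusted p = 0.0103), which stabilizes mitochondrial mRNA, and Prorp (0.52, adjusted p = 0.0193), the nuclease of the mitochondrial RNase P. Supv3l1 passed in all 6 sets, Slirp in 5 and Prorp in 3.

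Of 10 regulators of mitochondrial genes 4 rose (40%, against 17.2% of all genes tested) and 0 fell, with 1 fall at an unadjusted p under 0.05 (median 0.13). Pprc1, a coactivator of the PGC-1 family, went from 12.9 ± 0.373 to 25.7 ± 2.11 CPM (log2 0.99, adjusted p = 0.00247). Gabpb1, a subunit of GABP, rose by 0.78 (adjusted p = 0.0102) and Myc by 0.48 (adjusted p = 0.0199). Nrf1, whose motif was searched above, rose from 80.2 ± 1.46 to 104 ± 7.65 CPM (log2 0.38, adjusted p = 0.0435), a call lost with scaling by library size alone (adjusted p = 0.117) and whichever library was left out. Pprc1 passed in all 6 sets of 5 libraries, Gabpb1 in 5 and Myc in 3.

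Beside the mitochondrial ribosome, 40 of 82 nuclear-encoded respiratory chain genes tested rose (48.8%) and 1 fell, Ndufa4l2 (median 0.51). Of 81 cytosolic ribosomal protein genes tested, 7 rose (8.64%) and 2 fell (2.47%), with a median of 0.22. Of all genes tested 17.2% rose and 11.9% fell. Cytosolic ribosomal protein genes have many processed pseudogenes, and only unique reads were counted. The part of this in their values was not tested. After the same correction for length and GC, 2 of the 81 cytosolic genes rose and 4 fell, with a median of -0.01. The respiratory chain had 28 rises, 2 falls and a median of 0.31, and the mitochondrial ribosome 22 rises and a median of 0.26. Of all genes 15.9% rose with that correction. No test compared the lists. The genes of mitochondrial DNA itself, the templates that the mitochondrial ribosome reads, lay the other way. Of 13 such genes 7 had reads enough to be tested, and 5 of these fell and 0 rose, with 0 rises also at an unadjusted p under 0.05 (median -0.63). ND4, a subunit of complex I, was at 562.5, 460 and 616 CPM with saline and 272, 248 and 291 CPM with DT (log2 -1.01, adjusted p = 0.000957). ND2 (-0.96), ND6 (-0.82), ND5 (-0.63) and CYTB (-0.63, adjusted p = 0.0286) fell too, while COX1 had -0.62 (adjusted p = 0.063) and ND1 -0.36 (adjusted p = 0.195). The call of ND5 was lost in 1 and that of CYTB in 3 of the 6 sets of 5 libraries. The other 6 genes averaged under 1 CPM in both groups. Nuclear copies of mitochondrial DNA exist, and a read that fits both a copy and the mitochondrial gene would not count as unique. The part of such copies in the 6 low values and in the falls was not tested. Mitochondrial transcripts carry short poly(A) tails or none.

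**Figure D4:**
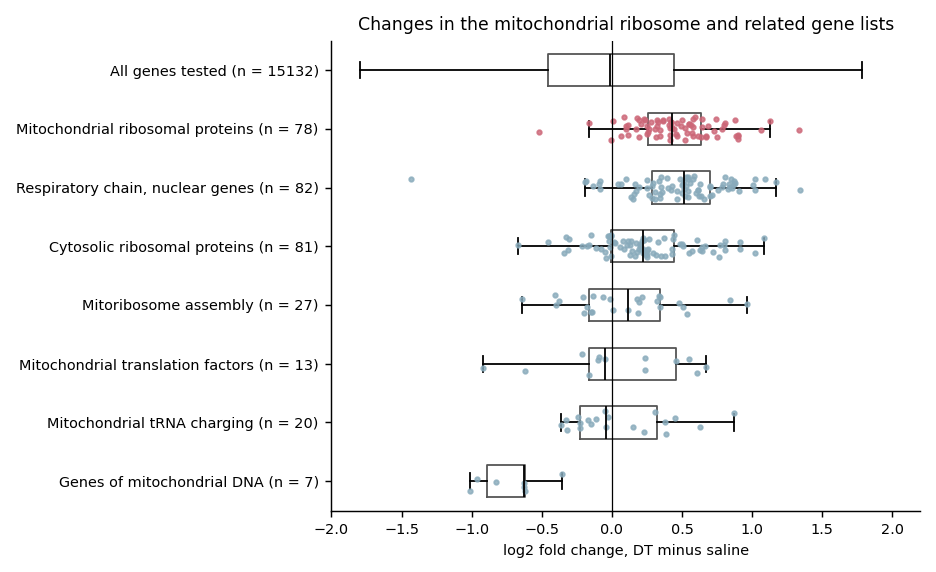
Log2 fold change (DT minus saline, x axis) of the genes tested in each list (y axis), with the median, the quartiles as a box and points for single genes. Whiskers reach the furthest gene within 1.5 box lengths, and single genes are not drawn for all genes tested. The mitochondrial ribosomal proteins have a median of 0.43, the respiratory chain one of 0.51 and the genes of mitochondrial DNA one of -0.63.

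Some members overlap other genes in GENCODE M21, and whether the counts used strand is not given in the sources used here. Other genes covered over 10% of the exon bases of 18 members, among them Mrps18b (30.5%), Mrps18c (23.2%) and Mrpl12 (13.1%). Reads of such partners cannot be told apart from those of the members. Of the 60 members with at most 10% covered, 28 rose and 0 fell, where 17.2% of all genes tested rose and 11.9% fell. The median of the 60 was 0.42. Of the 38 members that rose, 11 passed with each library left out in turn: Mrpl20, Mrpl45, Mrps9, Mrps18a, Mrpl33, Mrpl16, Mrps28, Mrps18b, Mrpl12, Mrpl36 and Mrpl17.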

How the data were processed

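The deposited files give, for each of 6 libraries, a count per Entrez gene, which the authors defined as the reads that align uniquely to the gene model, and an RPKM that the authors adjusted by a size factor, per the file headers. The submitters' processing notes name GSNAP and GRCm38. No version, annotation or strand setting was found in the sources used here. RefSeq named 31049 of 36528 identifiers. Library numbers follow the accession order and pair nothing. No 2 libraries of a group were copies: their counts differed beyond sampling error (chi-square over its degrees of freedom, 19.9 to 60.0).

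The counts were tested with edgeR 4.0.16 (R 4.3.3) by the robust quasi-likelihood test of DT against saline, after filterByExpr (minimum count 10, minimum total 15) and TMM scaling, with Benjamini-Hochberg adjustment over all 15132 genes at 0.05. CPM values are after TMM scaling, and ± is the SD over 3 libraries. Alternatives were run with DESeq2 1.42.0 and limma 3.58.1 (on voom weights, and on log2(RPKM + 1)), among others given below. Loess trends of each library's log levels on length and GC had a span of 0.5 and entered the fit as offsets. Length there was the ratio of count to RPKM in the deposited files, and GC was that of GENCODE M21 transcripts. Members named were up to 8 per direction with the smallest p, 4 with the greatest change per direction, 4 with the highest and 4 with the lowest RPKM, and 10 for their roles. Members placed at a site, the partner genes, the members with every call kept and the genes of mitochondrial DNA go beyond that rule. The members and lists were chosen with earlier results of these data known. Of 128 genes in the lists and markers 126 were found.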

Additional observations from a re-analysis of the deposited data

How the results depend on the processing

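The count of 38 members that rose was 34 to 40 with the DESeq2 size factors, no filter, a minimum mean count of 10, DESeq2, limma-voom, limma on log2(RPKM + 1), or a block for the identifier series or for consecutive identifiers. Of all genes 11.7% rose with no filter, where 24126 were in the fit, and 15.9 to 17.9% with the others. The count of members was 25 with scaling by library size only (background 13.9% of genes, median log2 fold change 0.33). With the length and GC correction it was 22 (background 15.9%, median 0.26), and within the larger identifier series 3 (Mrpl20, Mrpl33 and Mrpl45, background 7.22%). The smaller series, 1 library per group, gives no test. With each library left out in turn the count was 12 to 41 (background 10 to 17.9%), with a median of 0.37 to 0.48. The count of 0 falls held under each alternative. No paired analysis was possible because the labels carry no replicate numbers, and the block on consecutive identifiers, which gave 40, rests on the identifiers alone.

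No named member that passed turned direction. Of those that did not pass, Mrpl38 was at -0.10 with library size only, -0.024 with no filter and -0.022 with the minimum mean count, and Mrps30 at -0.032 with library size only and -0.15 in the larger series. With the length and GC correction Mrps30 was at -0.31, Mrps36 at -0.24 and Mrpl44 at -0.11. With 1 library left out, log2 fold changes ran from -0.12 to 0.26 for Mrpl38, from -0.085 to 0.16 for Mrps30, from -0.13 to 0.25 for Mrps36, from -0.40 to 0.29 for Mrps26 and from -0.16 to 0.094 for Mrps33. The cause was not tested. With 3 libraries per group, rises as small as most of these can be missed, and the members with the fewest reads, Mrpl23 and Mrps36, are the least precise.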
